A study of Mus musculus with 586 samples.

Results

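The posterior side of the E6.5 mouse epiblast, followed from its distal to its proximal end, was covered by 37 libraries coded P out of 586 samples in the series. They came from 6 C57BL/6 embryos, for which the labels give no treatment, and 37 libraries coded A, from the same sections of the same embryos, served for comparison. Members were all P libraries labelled E6.5, ordered by section number with low numbers distal. Embryos 1, 2 and 4 had P libraries of sections 2 to 7, embryo 3 of sections 2 to 6, and embryos 5 and 6 of sections 2 to 8. In Geo-seq, small groups of cells are cut by laser from cryosections and their RNA is amplified and sequenced, so each library is a small bulk sample. The codes A, P and EP are read here as anterior, posterior and posterior endoderm, following the atlas published from this material. Position runs from 0 at the most distal P section of an embryo to 1 at the most proximal. Section 1, still more distal, was a single library coded A/P in each of the 6 embryos and was left out. A slope is the change of log2(FPKM + 1) from position 0 to 1 in an embryo, where FPKM is fragments per kilobase of transcript, scaled to the mapped fragments of the library, so a slope of 1 is a doubling of FPKM + 1. The embryo is the replicate, with n = 6 throughout.

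The epiblast is the cup-shaped epithelium from which the whole body of the embryo forms. At the start of gastrulation the primitive streak appears in its posterior proximal rim and lengthens toward the distal tip, and cells that enter the streak lose epithelial contacts and become mesoderm or definitive endoderm. BMP signals come from the extra-embryonic tissue next to the proximal rim, and WNT3, NODAL and FGF signals act in the posterior epiblast. Early exit from the proximal streak gives extra-embryonic and cardiac mesoderm, while its distal front gives definitive endoderm and axial mesoderm.

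The P libraries carried the markers of epiblast. Pou5f1, which encodes OCT4, lay between 72.1 and 572 FPKM with a median of 306 over the 37 libraries, and Otx2, a homeobox factor of epiblast, between 10.1 and 66.6 FPKM. The libraries had 6739 to 9904 genes at 1 FPKM or more (median 9447) and FPKM sums of 133277 to 1014755. The most proximal library had 1.00 to 1.68 times the FPKM sum of the most distal library of its embryo. As deposited, the median slope of all 9543 tested genes was 0.42, against 0.12 with libraries at an equal sum and 0.02 at an equal median. The results therefore lead with genes whose slope passed in the same direction on all 3 scales. The library labelled P of section 5 of embryo 4 went against its label. It had Mixl1 at 1.47 FPKM, between 128 and 211 FPKM in the neighbouring P sections, with 1.09 FPKM in the A library of its section. The P library of section 3 and the A library of section 4 of embryo 6 also stood apart, with the lowest FPKM sums of their side in that embryo (176126 and 178471) and 7037 and 7202 genes at 1 FPKM or more. The A library of section 7 of embryo 1 had 5495 such genes, the fewest of all P and A libraries, and a median correlation of 0.798 with the other P and A libraries of its embryo. Calls of the genes described that change without 1 of these 4 libraries are given beside them. In such bulk samples, fewer cells of a type and less RNA per cell cannot be told apart.

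Along the P side, 150 of 9543 genes rose toward the proximal end on all 3 scales and 46 fell (limma, Benjamini-Hochberg adjusted p under 0.05), which is 1.57% and 0.482% of the genes tested. Of these, 149 and 42 had the same sign in 6 of 6 embryos. As deposited, 1926 genes (20.2%) passed upward and 71 (0.744%) downward, so that 96.4% of calls were upward, against 72.3% at an equal sum (193 and 74 genes) and 61.5% at an equal median (150 and 94). The 1926 were 754, 733, 499 and 654 without embryo 2, 3, 4 and 6, and the 71 were 42, 35 and 36 without embryo 2, 3 and 4. The 150 and 46 became 152 and 48 without the library of section 5 of embryo 4, with 150 and 45 of the genes shared, and 135 and 56 without that of section 3 of embryo 6. The downward count was 28, 22, 27 and 30 without embryo 2, 3, 4 and 6. Without the most distal section the counts were 83 and 19, with 81 and 12 of the genes shared. With the A/P library of section 1 added they were 130 and 38, with 109 and 24 shared.

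The upward genes were sorted by where their FPKM dropped. The boundary position is the place at which FPKM, followed distally from the highest section of an embryo, first falls to 0.5 of that highest value. Among the 150 genes, 19 were sharp proximal, with a median boundary at 0.75 or beyond, and 131 were gradual. Boundaries were read on linear FPKM, so a steep, even rise on the log scale can also be classed as sharp. Id1 and T were sharp with no bend call. Of the 46 downward genes, 39 had their highest section at position 0.25 or below (distal peak) and 7 elsewhere (distal plateau). A further 12 genes had no slope call but a negative bend with the highest section between 0.25 and 0.75 (middle peak). Among all calls as deposited the numbers were 25 sharp, 1901 gradual, 59 distal peak and 12 distal plateau. The limit of 0.75 cuts through a continuum: T (0.751), Fgf17 (0.753) and Pdgfa (0.758) lay just inside it, and Evx1 (0.735), Rbms1 (0.72) and Wnt5b (0.712) just outside. With a limit of 0.65 there were 50 sharp genes among the 150, and with 0.85 there was 1.

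**Figure D1:**
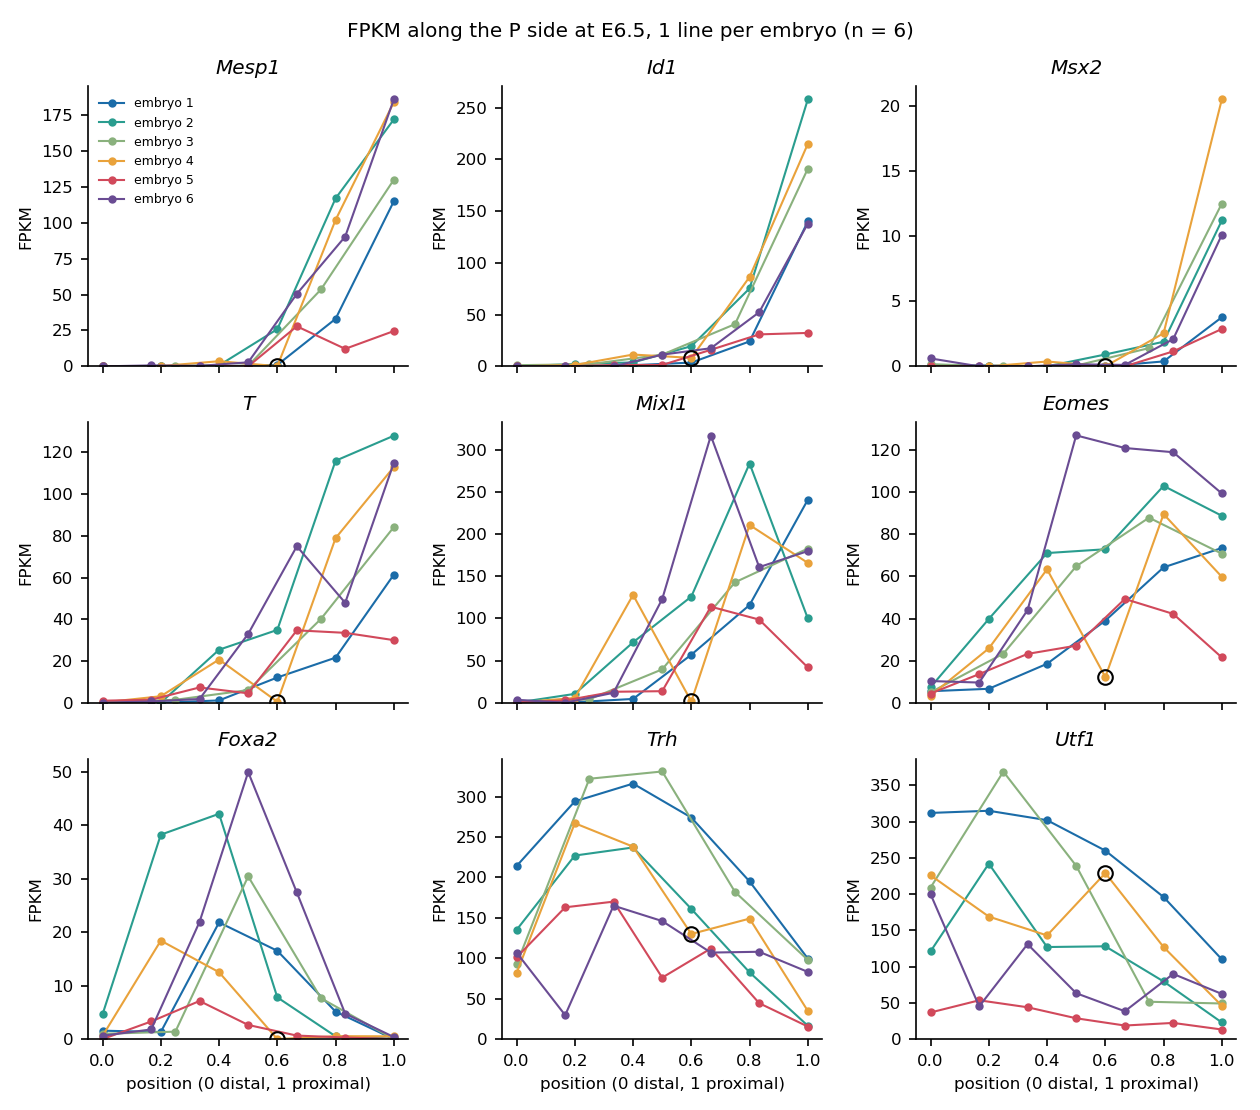
FPKM on a linear axis against position along the P side (0 distal, 1 proximal) for 9 genes, with 1 line per embryo (n = 6) and a black ring around the library of section 5 of embryo 4. Mesp1, Id1 and Msx2 stayed near 0 over the distal sections and were highest at position 1, save Mesp1 in embryo 5 (0.667); Foxa2 and Trh were highest between 0.2 and 0.5.

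Mesp1, a basic helix-loop-helix factor of the first mesoderm cells and a marker of cardiac progenitors, had the steepest slope of the genes named here. It lies on chromosome 7 (79792241 to 79793788, minus strand, GRCm38, the mm10 assembly). In the most proximal P section it had 24.6, 151 and 186 FPKM as the lowest, median and highest of the 6 embryos, and in the most distal section 0 to 0.182 FPKM. The ends did not overlap. Followed through the sections of embryo 2, from distal to proximal, it had 0, 0.0979, 0.708, 25.9, 117 and 172 FPKM, and in embryo 6 it had 0, 0.647, 0.339, 2.82, 50.5, 90.4 and 186 FPKM. In 17 of 37 P libraries it was at 1 FPKM or more. Its slope was 7.58 ± 0.32 (SE, adjusted p = 4.46e-09, upward in 6 of 6 embryos), at 7.85 ± 0.39 in embryos 1 to 4 and 7.05 ± 0.55 in embryos 5 and 6. Its bend, which is the rise over the proximal part of the axis minus that over the distal part, was 3.51 ± 0.50 (adjusted p = 0.00716). On the log2(FPKM + 1) scale, which flattens values near 0, more of the rise thus lay in the proximal part. As deposited, embryo 5 was the exception in shape. Its highest Mesp1 section was at position 0.667, with 27.9 FPKM there and 24.6 FPKM at position 1. The FPKM sums of these libraries were 321927 and 190593. At an equal sum, position 1 would therefore be the higher.

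Id1 encodes an inhibitor of basic helix-loop-helix factors and is a direct target of BMP signals, and lies on chromosome 2 (152736251 to 152737410, plus strand). It had 32.3, 166 and 258 FPKM as lowest, median and highest in the most proximal section, against 0 to 1.13 FPKM in the most distal. Its mean was 0.233, 1.57, 7.96, 41.0 and 162 FPKM at positions 0, 0.25, 0.5, 0.75 and 1, a rise of several-fold at each step. The slope was 7.23 ± 0.25 (adjusted p = 2.06e-12, 6 of 6 embryos). Its bend of 1.85 ± 0.41 did not pass (adjusted p = 0.0594).

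Msx2, a homeobox target of BMP signals, had the most proximal boundary of the 19 sharp genes, at 0.883. It had 2.87, 10.6 and 20.5 FPKM as lowest, median and highest in the most proximal section, against 0 to 0.61 FPKM in the most distal, and the ends did not overlap. At positions 0.5 and 0.75 its mean was 0.143 and 1.15 FPKM, against 10.1 ± 6.45 FPKM at position 1 (SD, n = 6). Its bend of 3.25 ± 0.40 (adjusted p = 0.00141) and that of Mesp1 were the 2 positive bends called, 0.021% of the genes tested (4 and 12 without embryo 2 and 6). Both also passed at an equal sum (3.99 and 3.73) and at an equal median (3.27 and 3.67). With a pseudocount of 0.1 only 1 positive bend was called, and likewise 1 without the most distal section. Id2, another BMP target of the same family as Id1, had 47.2 ± 22.2 FPKM in the most proximal section and 2.80 ± 1.55 FPKM in the most distal, with a boundary at 0.838 and a slope of 3.52 ± 0.25 (adjusted p = 4.36e-08).

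T, the T-box factor brachyury that mesoderm cells need to form and leave the streak, had 30.0, 98.4 and 128 FPKM as lowest, median and highest in the most proximal section and 0 to 0.963 FPKM in the most distal. Its slope was 6.54 ± 0.34 (adjusted p = 4.36e-08) with no bend call (-0.33 ± 0.52, adjusted p = 0.687). Cfc1, an EGF-CFC co-receptor of NODAL, had 20.9 ± 8.42 and 0.688 ± 0.870 FPKM at the proximal and distal ends (boundary 0.797). Pdgfa, a platelet-derived growth factor whose receptor marks mesoderm, had 34.2 ± 15.5 and 1.68 ± 1.94 FPKM. Slpi, a secreted inhibitor of leukocyte proteases, had 34.3 ± 24.4 and 1.29 ± 1.67 FPKM (boundary 0.790, slope 4.12 ± 0.31, adjusted p = 3.10e-07). A pair of FGF ligands was sharp. Fgf17 had 11.1 ± 7.17 and 0.825 ± 0.829 FPKM, and Fgf3 had 3.39 ± 2.96 and 0.253 ± 0.429 FPKM, with overlapping ends for Fgf3. Ifitm1, an interferon-induced membrane protein known from germ cell competent proximal epiblast, had 89.7 ± 36.2 and 25.9 ± 13.2 FPKM. The other sharp genes, named after the class was formed, were Phlda2, Cox4i2, Psmb8, Fam212a, Arl4d, Tmem119, Igfbp3 and Slc38a5, with slopes of 1.27 to 3.26.

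**Figure D2:**
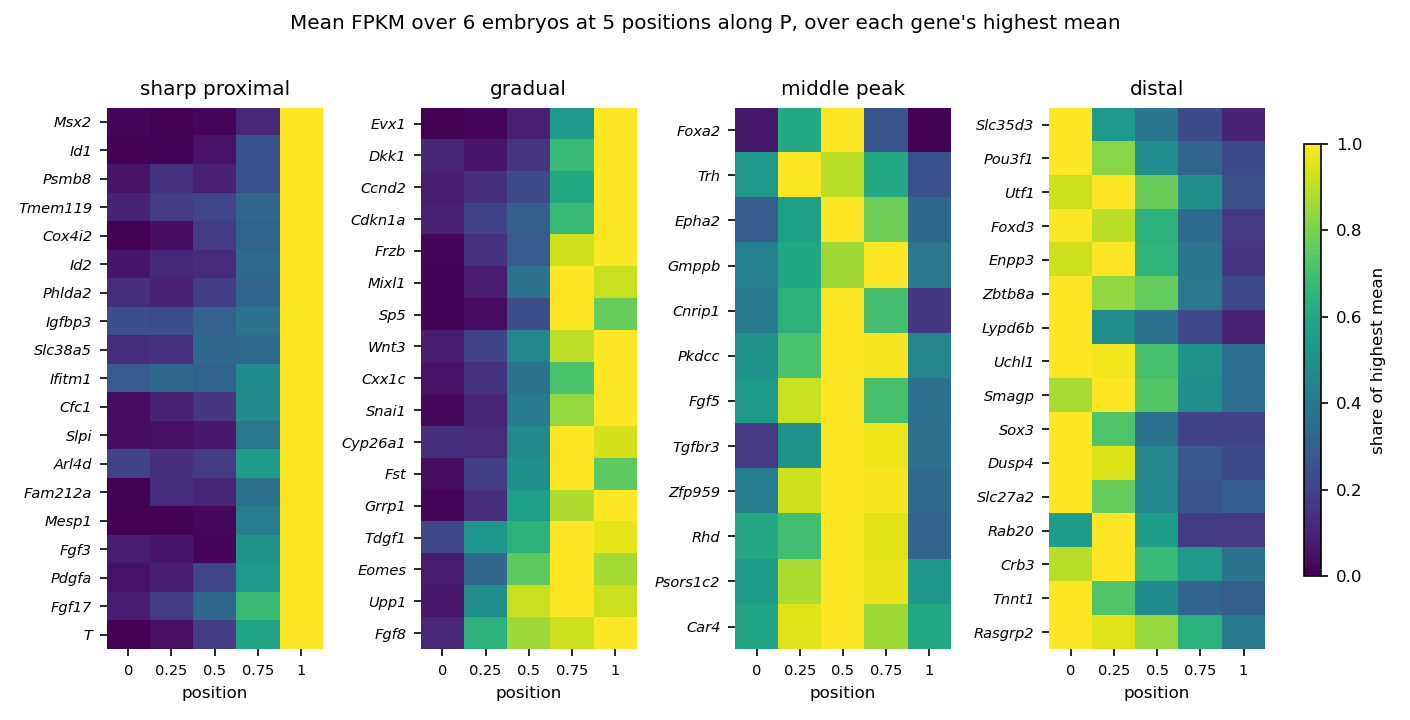
Mean FPKM over the 6 embryos, interpolated at positions 0, 0.25, 0.5, 0.75 and 1 along P and divided by the highest of the 5 means of each gene. Columns of panels hold the 19 sharp proximal genes, 17 of the 131 gradual genes, the 12 middle peak genes and the 16 of 46 downward genes with the steepest slopes. All 19 sharp genes had their highest mean at 1, while Mixl1, Eomes and several other gradual genes had it at 0.75.

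Promoter sequences of 300 bases (250 before and 50 after the transcription start, RefSeq, GRCm38.p6) are shown for genes that rose together along P and belong to different signalling outputs: Mesp1 and T of the sharp class, the WNT target Sp5 of the gradual class, and the BMP targets Id2 and Msx2, also sharp. Capitals mark matches on either strand to CTTTGA (a core of TCF/LEF sites), TCACACC (a core of T-box sites) or GGCGCC (a GC-rich BMP SMAD element); the 3 motifs did not overlap in these windows.
Mesp1, chr7:79793541-79793840, minus strand: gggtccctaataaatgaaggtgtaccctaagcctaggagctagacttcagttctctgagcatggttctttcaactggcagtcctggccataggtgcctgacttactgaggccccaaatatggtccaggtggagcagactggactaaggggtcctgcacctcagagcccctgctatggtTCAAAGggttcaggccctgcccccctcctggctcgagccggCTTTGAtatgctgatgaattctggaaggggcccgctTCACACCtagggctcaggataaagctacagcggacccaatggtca
T, chr17:8434173-8434472, plus strand: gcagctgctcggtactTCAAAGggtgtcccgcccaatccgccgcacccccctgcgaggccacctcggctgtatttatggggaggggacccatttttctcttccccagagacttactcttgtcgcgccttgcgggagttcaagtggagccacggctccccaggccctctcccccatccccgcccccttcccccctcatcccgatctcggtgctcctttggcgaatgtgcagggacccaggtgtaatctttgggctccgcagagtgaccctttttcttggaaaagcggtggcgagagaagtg
Sp5, chr2:70474673-70474972, plus strand: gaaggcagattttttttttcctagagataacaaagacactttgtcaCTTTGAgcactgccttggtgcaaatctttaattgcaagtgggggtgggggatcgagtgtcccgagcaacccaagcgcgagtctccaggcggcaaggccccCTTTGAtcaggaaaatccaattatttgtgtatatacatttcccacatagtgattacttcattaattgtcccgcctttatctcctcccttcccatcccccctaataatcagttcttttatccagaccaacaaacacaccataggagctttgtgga
Id2, chr12:25096043-25096342, minus strand: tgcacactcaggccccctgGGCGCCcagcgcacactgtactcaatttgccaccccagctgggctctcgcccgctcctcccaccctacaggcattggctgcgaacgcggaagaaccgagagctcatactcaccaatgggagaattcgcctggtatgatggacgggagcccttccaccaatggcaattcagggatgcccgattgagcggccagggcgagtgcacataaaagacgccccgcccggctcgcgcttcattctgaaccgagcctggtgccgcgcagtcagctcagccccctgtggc
Msx2, chr13:53472731-53473030, minus strand: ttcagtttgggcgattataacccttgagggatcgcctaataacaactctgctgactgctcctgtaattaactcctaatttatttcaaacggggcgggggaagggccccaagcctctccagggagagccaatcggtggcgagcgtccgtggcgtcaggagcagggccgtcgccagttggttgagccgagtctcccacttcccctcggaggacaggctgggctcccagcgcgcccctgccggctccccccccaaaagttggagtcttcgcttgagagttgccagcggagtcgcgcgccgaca

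The Mesp1 window held CTTTGA or its reverse complement at 2 places and TCACACC at 1, the Sp5 window held CTTTGA at 2 places, the T window at 1, and the Id2 window held GGCGCC at 1. The Msx2 window held 0 matches to any of the 3. Of all 32851 windows in the table, 16% held CTTTGA, 3.98% TCACACC and 11.9% GGCGCC. Among tested genes with a window (7102), the shares were 13.8%, 3.86% and 25.8%. Of the 19 sharp genes 14 had a window, and 4, 1 and 2 of these held the 3 motifs in that order. Of the 131 gradual genes 87 had a window, with 19, 5 and 32 holding them. A match is a description of the letters, not of a bound site.

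The positions at which Id1 and the main streak genes dropped were compared within embryos. Boundaries were interpolated between neighbouring sections, which lay 0.167 to 0.25 of the axis apart, so smaller differences lie within a single section step. Mean boundaries were 0.824 ± 0.078 for Id1, 0.763 ± 0.099 for Mesp1, 0.741 ± 0.108 for T, 0.642 ± 0.098 for Mixl1 and 0.447 ± 0.152 for Eomes (SD, n = 6). The boundary of Mesp1 lay proximal to that of Mixl1 in 6 of 6 embryos, by 0.121 ± 0.105 (SD) of the axis, and to that of Eomes in 6 of 6, by 0.317 ± 0.153. Id1 dropped proximal to Mesp1 by 0.061 ± 0.039 and to Mixl1 by 0.182 ± 0.099, each in 6 of 6 embryos, and the boundary of Eomes minus that of Mixl1 was -0.195 ± 0.110, below 0 in 6 of 6. Each of these 5 pairs had p = 0.0312 (exact sign-flip permutation test over 6 embryos, two-sided, adjusted p = 0.0375 over the 6 pairs), the smallest p that 6 embryos allow. The boundary of Mesp1 lay proximal to that of T in 5 of 6 embryos, by a mean of 0.022 ± 0.027, which did not pass (exact permutation p = 0.125, adjusted p = 0.125). With libraries at an equal sum the Id1 and Mesp1 boundaries differed by 0.028, which did not pass (exact permutation test, adjusted p = 0.438); the calls of the other pairs were the same there and without the library of section 5 of embryo 4. Taken at 0.25 of the highest value in place of 0.5, Mesp1 and T differed by 0.077 (exact permutation test, adjusted p = 0.0312).

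**Figure D3:**
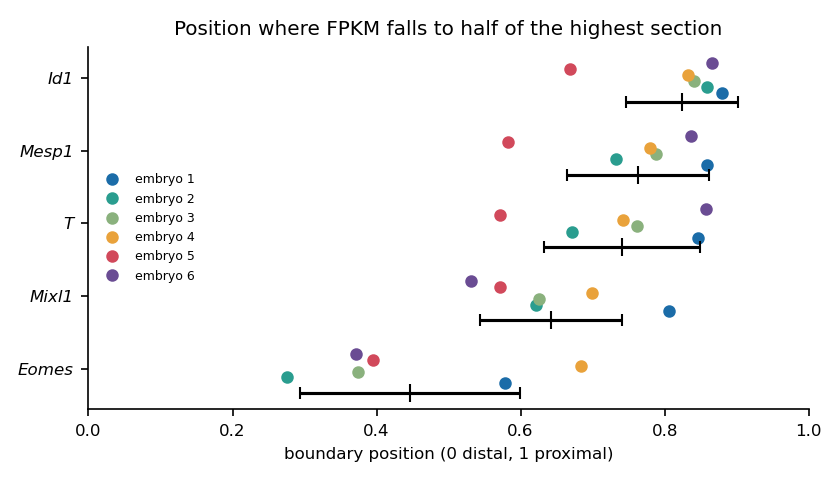
Boundary position on the P side (0 distal, 1 proximal) of 5 genes in each of 6 embryos (points), with the mean and SD as a bar under the points. From Id1 at the top to Eomes at the bottom the means moved distally. With FPKM as deposited, embryo 5 had the lowest boundary of Id1, Mesp1 and T.

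Mixl1, a paired-type homeobox factor of mesoderm and endoderm precursors on chromosome 1 (180693043 to 180697034, minus strand), was the steepest gradual gene. It had 41.9, 173 and 241 FPKM as lowest, median and highest in the most proximal section against 0.0742 to 3.44 FPKM in the most distal, and was at 1 FPKM or more in 32 of 37 libraries. In embryo 6 it had 3.44, 0, 11.8, 123, 317, 161 and 180 FPKM from distal to proximal, so its highest section was at position 0.667. It was highest at position 1 in embryos 1 and 3 and between 0.667 and 0.8 in the others. Its slope was 6.86 ± 0.23 (adjusted p = 1.91e-12), at 6.94 ± 0.29 in embryos 1 to 4 and 6.69 ± 0.40 in embryos 5 and 6.

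Eomes, whose T-box protein acts in mesoderm delamination and in definitive endoderm, was at 3.36 FPKM or more in all 37 libraries. It had 21.5, 72.1 and 99.4 FPKM in the most proximal section as lowest, median and highest, against 3.36, 5.2 and 10.3 FPKM in the most distal, and its mean at position 0.5 was already 59.6 FPKM. Its slope of 3.31 ± 0.23 (adjusted p = 4.24e-08) came with a negative bend of -2.60 ± 0.38 (adjusted p = 0.00484), so more of the rise lay in the distal part of the axis. Fgf8, an FGF ligand that cells need to move away from the streak, had the same form, with 17.8 ± 9.88 FPKM at position 0, 102 at 0.25, 136 at 0.5 and 159 ± 62.5 at position 1 (slope 2.72 ± 0.26, adjusted p = 2.84e-06; bend -2.69 ± 0.34, adjusted p = 0.00141). Both bends also passed at an equal sum and at an equal median, but not without the most distal section. Upp1, a uridine phosphorylase, had a mean of 2.84 FPKM at position 0, 39.9 at 0.5 and 39.8 at position 1; its bend of -3.20 ± 0.51 (adjusted p = 0.0140) did not pass at an equal sum (-2.96, adjusted p = 0.176) or median (-2.78, adjusted p = 0.214).

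Other gradual genes of steep slope were Snai1, a repressor of E-cadherin, with 36.1 ± 16.8 FPKM in the most proximal and 0.778 ± 0.803 FPKM in the most distal section; Fst, the activin antagonist follistatin, with 93.8 ± 35.1 and 3.92 ± 2.54 FPKM; and the homeobox factor Evx1 with 15.8 ± 8.19 and 0.0187 ± 0.0458 FPKM. The ends did not overlap for any of these 3, which were named for their steep slopes, so this is partly built in. Grrp1 had a slope of 4.07 ± 0.32. Cxx1c had a slope of 4.26 ± 0.22, but may share reads with the near-identical Cxx1a and Cxx1b, which also rose, so its value is uncertain. Apln, the peptide ligand apelin, and its receptor gene Aplnr rose by 3.75 ± 0.23 and 1.66 ± 0.27; both are named here after their values were seen.

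The middle peak genes were led by Foxa2, a forkhead factor of definitive endoderm and axial mesoderm that the distal front of the streak gives rise to. It had a mean of 1.4, 13.5, 22.2, 5.82 and 0.160 FPKM at positions 0, 0.25, 0.5, 0.75 and 1. In embryo 6 it had 0.621, 1.80, 21.9, 49.9, 27.4, 4.75 and 0.384 FPKM, and in embryo 2 it had 4.63, 38.2, 42.1, 7.80, 0.520 and 0.0532 FPKM. The highest section lay between position 0.2 and 0.5 in all 6 embryos. Its slope was not called (-1.26 ± 0.54, adjusted p = 0.116), and its bend was the most negative of the genes named here, at -6.14 ± 0.74 (adjusted p = 0.00902), with the same sign in 6 of 6 embryos. It passed too at an equal sum (-6.89) and median (-5.96), but not without the most distal section. Of the 5 positions, the mean was highest at 0.5 for Foxa2, at 0.75 for Mixl1 and Eomes, and at 1 for Mesp1, Id1 and T.

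Trh, which encodes the precursor of thyrotropin-releasing hormone, had 122, 229, 205, 138 and 57.9 FPKM at the 5 positions (bend -3.01 ± 0.38, adjusted p = 0.00141). Its slope of -1.28 did not pass (adjusted p = 0.0518), but did without section 3 of embryo 6 (-1.43, adjusted p = 0.0376). Epha2, an ephrin receptor of the early streak, had 3.93 ± 2.66 FPKM at position 0, 13.5 at 0.5 and 4.53 ± 2.35 at position 1 (bend -2.70 ± 0.38, adjusted p = 0.00453). Fgf5, an FGF ligand of the primed epiblast, had 24.8 ± 11.3, 45.6 and 17.1 ± 6.34 FPKM at these places (bend -2.28, adjusted p = 0.00716). In all, 21 genes (0.22%) had a negative bend. This count depended on single embryos and libraries: it was 66 without the library of section 5 of embryo 4, 33, 11, 5, 7 and 751 without embryo 1, 2, 3, 5 and 6, and 6 and 7 at an equal sum and median. It was 3 without the most proximal section, 0 without the most distal section and 0 in embryos 5 and 6. Each negative bend named here thus depended on the most distal section. The median bend of all genes as deposited was -0.52.

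Pou3f1, a POU-domain factor of neural and primed epiblast, had 0.668, 5.55 and 16.4 FPKM as lowest, median and highest in the most proximal section against 3.24, 28.8 and 54.5 FPKM in the most distal. The ranges of the 6 embryos overlapped, while each embryo fell: the slope was -2.09 ± 0.27 (adjusted p = 6.11e-05, downward in 6 of 6 embryos), with embryo 3 apart at -3.75 against -1.86 to -1.70 in the others. Utf1, which encodes a chromatin-bound factor of pluripotent cells, had 13.2, 47.5 and 110 FPKM against 36.7, 204 and 312 FPKM (slope -1.82 ± 0.22, adjusted p = 3.43e-05). Its mean held at 184, 199 and 154 FPKM over positions 0, 0.25 and 0.5 and was 98.7 and 50.6 FPKM at 0.75 and 1. In embryos 5 and 6 alone the slope of Utf1 was -1.36 ± 0.37 and did not pass (adjusted p = 0.0924), against -2.06 ± 0.26 in embryos 1 to 4.

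Foxd3, a forkhead factor that keeps epiblast cells undifferentiated, had 0.998 ± 1.02 FPKM at the proximal end and 5.99 ± 4.30 FPKM at the distal end, and Sox3, a SOXB1 factor of neural progenitors, 0.729 ± 0.817 and 3.65 ± 2.52 FPKM. Uchl1, a ubiquitin hydrolase abundant in neurons, had 19.5 ± 11.9 and 54.0 ± 21.9 FPKM. Slc7a3, a cationic amino acid transporter, had 24.6 ± 11.7 and 59.9 ± 31.0 FPKM, and Crb3, an apical polarity protein of epithelia, 7.95 ± 4.74 and 18.7 ± 11.9 FPKM. Zbtb8a, Smagp, Rasgrp2, Mt3 and Sall2 had slopes of -1.66 to -1.16. Of the 10 downward genes named by size, Zbtb8a, Smagp and Mt3 were of the distal plateau form and the other 7 of the distal peak form. Foxd3 and Sox3 are named as members of the gene lists.

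Slopes on the P side were set against those of the A libraries of the same sections, paired by embryo. In 26 genes (0.272%) the slope was higher in P than in A and in 1 gene (0.0105%) lower. Over all 9543 tested genes the median difference was 0.29, with 7534 genes above 0. Genes were chosen for testing by their mean in the P libraries, so a gene expressed mainly in A could be missed. Of the 26 genes, 25 were among the 150 upward genes, but the P slope enters both measures, so this overlap is partly built in. The P minus A difference was largest for Mesp1, at 5.80 ± 0.36 (adjusted p = 4.76e-06, positive in 6 of 6 embryos), from slopes of 7.58 in P and 1.79 in A. In the most proximal section Mesp1 had 135 ± 61.6 FPKM in P and 9.10 ± 11.1 FPKM in A. T differed by 4.64 ± 0.43 (adjusted p = 3.96e-04) and Sp5 by 3.38 ± 0.38 (adjusted p = 0.00222). Lhx1, a LIM homeobox factor of the anterior streak, differed by 3.03 (adjusted p = 0.00701) and Evx1 by 2.67 (adjusted p = 0.00293). Of the 15 named genes with a P minus A call, these 5 also passed at an equal sum, at an equal median, without each of the 4 libraries that stood apart and without each embryo. Mixl1 differed by 4.43 ± 0.56 (adjusted p = 0.0170), but did not pass at an equal sum (4.28, adjusted p = 0.0936), without section 7 of embryo 1 (4.22, adjusted p = 0.0624), without section 3 of embryo 6 (4.10, adjusted p = 0.157) or without embryo 1, 5 or 6. Slpi differed by 3.53 ± 0.52 (adjusted p = 0.0144), but did not pass at an equal sum (3.82, adjusted p = 0.0936) or without embryo 3 or 4. Utf1 was the 1 gene of the other sign, at -1.49 ± 0.23 (adjusted p = 0.0170): in the most proximal section it had 50.6 ± 34.3 FPKM in P and 179 ± 53.3 FPKM in A. It passed at an equal sum and at an equal median, but not without embryo 2, 3, 5 or 6 (highest adjusted p = 0.0725).

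Id1 was steep on both sides. Its slope was 7.23 ± 0.25 in P and 7.23 ± 0.27 in A, with a 95% interval of the difference from -0.65 to 0.64, and it had 162 ± 78.3 FPKM in P and 178 ± 75.8 FPKM in A in the most proximal section. Id2 had slopes of 3.52 ± 0.25 in P and 4.77 ± 0.49 in A (difference -1.25 ± 0.43, interval -2.18 to -0.32, adjusted p = 0.346). The chemokine gene Cxcl12 had 2.12 and 2.06 (interval -0.62 to 0.75). For Eomes, Wnt3 and Fgf8 the differences of 0.96, 0.80 and 0.41 did not pass (adjusted p = 0.203, 0.410 and 0.610). A p that misses the threshold does not show equal slopes. The count of 26 moved with single embryos and libraries, to 14, 6, 7, 11 and 10 without embryo 2, 3, 4, 5 and 6, to 44 without section 7 of embryo 1 and to 13 without section 3 of embryo 6, and was 31 without section 4 of embryo 6. At an equal sum it was 7 and at an equal median 9, with Mesp1 at 6.24 in the fit at an equal sum (adjusted p = 0.00687). Of genes with no call, Pdgfa (1.72, adjusted p = 0.0137) and Pou3f1 (-1.36, adjusted p = 0.0363) passed without section 7 of embryo 1. The 1 lower gene became 0 to 2 genes without single embryos, 3 at an equal sum and 3 at an equal median. At an unadjusted p under 0.05 there were 1171 genes.

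**Figure D4:**
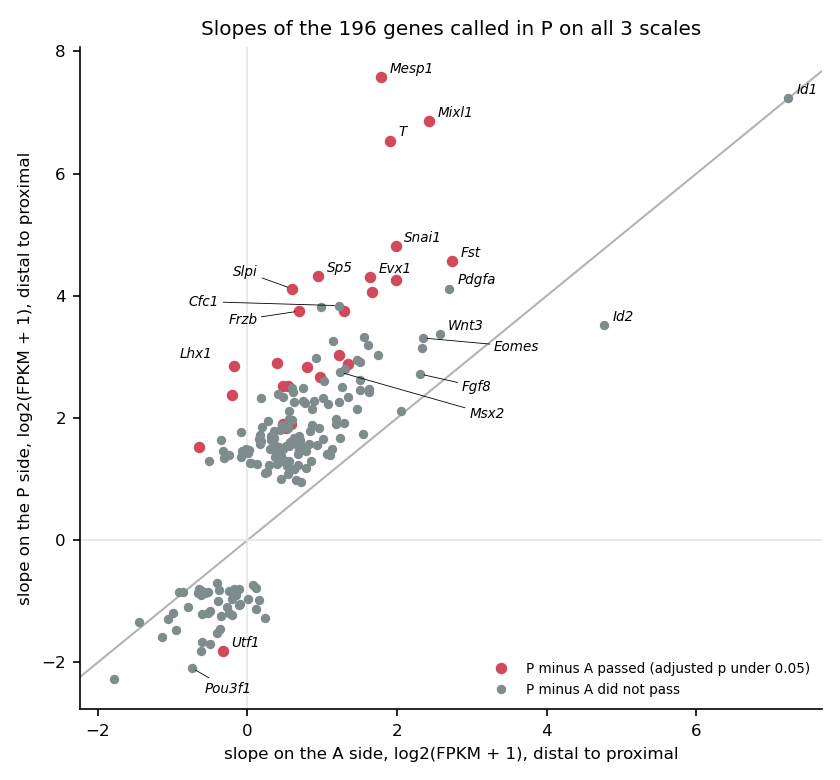
Slope on the P side against slope on the A side, both in log2(FPKM + 1) from the distal to the proximal end, for the 150 upward and 46 downward genes. The grey diagonal marks equal slopes; Id1 lies on it at 7.23, and Mesp1, Mixl1 and T lie far above it.

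Gene lists were read by role, each count being members that passed on all 3 scales, against 1.57% upward and 0.482% downward of all genes. The lists were chosen with earlier results of these data known, so their counts are descriptions. Of 20 transcription factors and partners of the streak, 15 were tested at a mean of 1 FPKM or more and all 15 rose, with a median slope of 3.31 against 0.42 for all genes; a gene low in the distal sections enters this list only through its proximal level. Of 20 genes of nascent mesoderm 9 were tested and 7 rose, among them Mesp2, Lefty2 and Frzb. The same limit on entry holds for this list and for those below. Mesp1, Mesp2 and Snai1 stand in both the streak and the nascent mesoderm list. Of 16 genes of extra-embryonic mesoderm 1 was tested. Hand1, a factor of extra-embryonic and cardiac mesoderm that was not tested, had 0.317 to 5.58 FPKM in the most proximal sections.

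Of 11 tested WNT ligands and receptors, 5 rose and 0 fell (median slope 0.93). Wnt3, the ligand that starts the streak, had 18.4 ± 8.08 FPKM at the proximal end and 1.37 ± 1.07 FPKM at the distal end (slope 3.38 ± 0.28, adjusted p = 4.78e-07), Wnt8a had 6.00 ± 3.62 and 0.0622 ± 0.0804 FPKM, and Wnt5b 10.6 ± 6.02 and 1.16 ± 0.482 FPKM. Wls and Porcn, which escort and acylate WNT proteins, are in no list and were picked after their values were seen, with slopes of 2.53 ± 0.29 and 1.79 ± 0.25. Of 16 tested WNT targets and inhibitors, 6 rose and 0 fell (median 0.79). Sp5, a zinc finger target of WNT, had 12.3 ± 5.71 and 0.145 ± 0.335 FPKM at the ends, the feedback inhibitor Axin2 6.80 ± 3.64 and 1.01 ± 0.764 FPKM, and the secreted antagonists Frzb and Dkk1 had slopes of 3.75 ± 0.28 and 2.5 ± 0.35.

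Of 8 tested BMP targets and effectors, 4 rose (Id1, Id2, Msx2 and Smad1; median 1.27), while of 8 tested BMP ligands, receptors and inhibitors 0 passed on all 3 scales in limma (median 0.26). As deposited Bambi, a decoy receptor and target, passed with a slope of 0.97 ± 0.26 (adjusted p = 0.0201). Bmp4, the ligand made by extra-embryonic ectoderm, had 0 to 4.34 FPKM in the 37 libraries and was too low to be tested. Of 16 tested NODAL genes, 6 rose, among them Tdgf1, Cfc1, Lefty2 and Fst (median 0.67). Tdgf1, the co-receptor Cripto, had 94.9, 298 and 375 FPKM as lowest, median and highest at the proximal end, against 27.0, 55.1 and 117 FPKM at the distal end. Nodal itself had 9.94 ± 7.93 FPKM at position 0, 22 at 0.5 and 21.7 ± 10.2 at position 1; its slope of 1.02 ± 0.27 (adjusted p = 0.0196) passed as deposited only, at 0.56 with equal medians. Lefty1, an inhibitor of NODAL named after its value was seen, had 0.896 ± 0.790 and 7.68 ± 5.22 FPKM at the proximal and distal ends, and its slope of -1.47 ± 0.47 also passed as deposited only (adjusted p = 0.0486).

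Of 16 tested FGF genes, 3 ligands rose (Fgf3, Fgf8 and Fgf17) and Dusp4, a phosphatase of ERK, fell by 1.34 (SE 0.29, adjusted p = 0.00743). Of 9 NOTCH genes 1 rose (Hes1, 35.3 ± 15.4 and 13.1 ± 9.27 FPKM). Of 11 retinoic acid genes 3 rose. Among them, Cyp26a1, which breaks retinoic acid down, had 21.5 ± 7.78 and 3.13 ± 5.5 FPKM, and the receptor Rxrg had a slope of 1.35 ± 0.26. Evx1 was the 1 tested gene of 18 Hox, Cdx and related genes. Of 10 anterior streak and node genes, 3 rose (Gsc, Lhx1 and Dkk1). Gsc, a homeobox factor of the anterior streak, had its highest mean away from the end, with 2.84 ± 2.59 FPKM at position 0, 28.0 at 0.5 and 19.3 ± 13.5 at position 1.

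**Figure D5:**
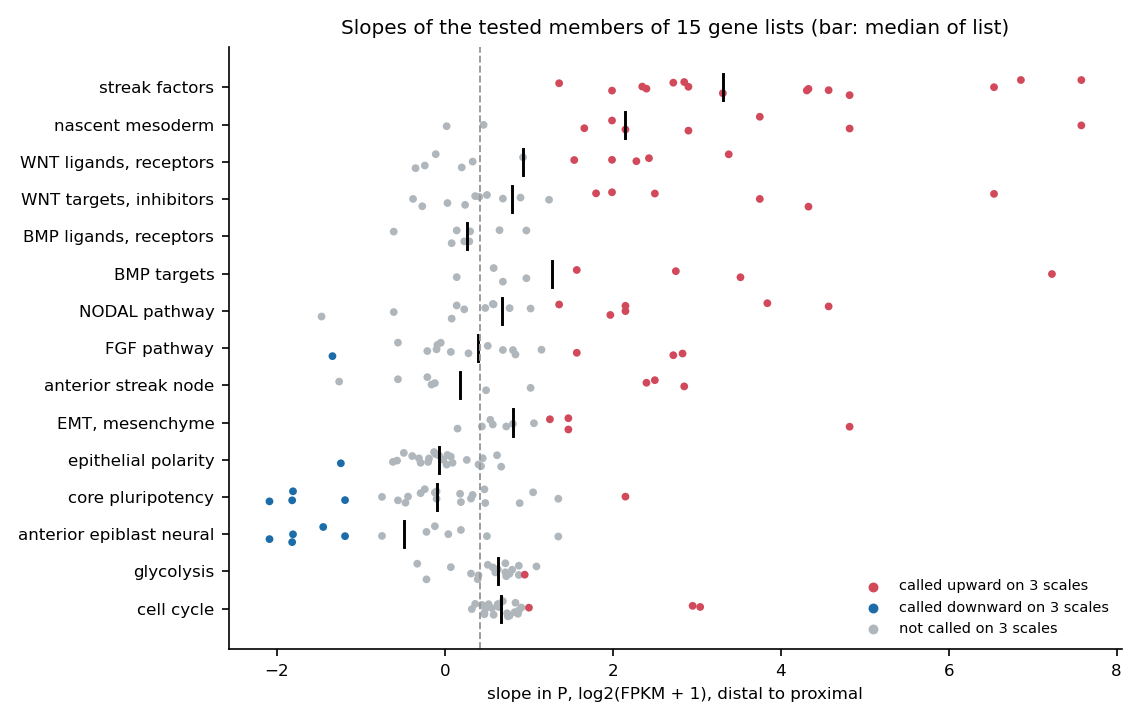
Slope in P, in log2(FPKM + 1) from the distal to the proximal end, of the tested members of 15 gene lists, with 1 point per gene; red and blue points passed upward and downward on all 3 scales and grey points did not. Black bars are list medians and the dashed line is the median of all tested genes, 0.42.

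Of 11 tested mesenchymal genes 4 rose: Snai1, Cdh11 (a mesenchymal cadherin), Fn1 (fibronectin) and Mmp14 (a membrane protease), with slopes of 1.25 to 4.82. Of 23 tested junction and polarity genes 1 fell (Crb3) and 0 rose, with a median of -0.07 as deposited and -0.42 at an equal median. Cdh1, which encodes E-cadherin and is named after its value was seen, had 16.2 ± 6.29 FPKM at the proximal end and 19.9 ± 8.64 FPKM at the distal end (slope -0.31 ± 0.20, adjusted p = 0.248). Its slope passed downward at an equal median (-0.79, adjusted p = 0.0344) and not at an equal sum (-0.71, adjusted p = 0.0604). Of 12 tested anterior epiblast and neural factors 5 fell and 0 rose on all 3 scales (Sox3, Pou3f1, Slc7a3, Utf1 and Foxd3; median -0.49), and of 23 pluripotency genes 4 of the same genes fell and Tdgf1 rose (median -0.10). Pou5f1 had 318 ± 146 and 247 ± 120 FPKM at the ends (slope 0.48 ± 0.18, adjusted p = 0.0627), Otx2 23.7 ± 6.29 and 30.5 ± 11.1 FPKM, and Sox2 5.19 ± 3.43 and 9.28 ± 5.01 FPKM (slope -0.75 ± 0.27, adjusted p = 0.0567). Sox2 passed downward at an equal sum (-1.18, adjusted p = 0.0204), at an equal median (-1.20, adjusted p = 0.0153) and without section 3 of embryo 6 (-0.85, adjusted p = 0.0353). Nanog, a pluripotency homeobox factor that posterior epiblast keeps, had 29.8 ± 8.15 and 15.9 ± 10.1 FPKM; its slope of 1.05 ± 0.23 (adjusted p = 0.00896) passed as deposited and was 0.58 at equal medians.

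Of 24 cell cycle genes 3 rose on all 3 scales. The G1 cyclin Ccnd2 had 20.1 ± 8.23 and 1.72 ± 0.863 FPKM at the proximal and distal ends, and Cdkn1a, the inhibitor p21, had 16.1 ± 5.96 and 1.53 ± 1.76 FPKM, while the mitotic cyclin Ccnb1 had a slope of 1.00 ± 0.20. Of 19 glycolysis genes 1 rose (Aldoa, 0.95 ± 0.18) and 0 fell, against 11 that passed as deposited. Of 9 guidance genes 1 rose (Cxcl12, 28.1 FPKM proximal and 4.08 distal) and of 15 matrix genes 1 (Fn1). Of 10 immediate early and stress genes 0 passed in limma in either direction. Of 7 tested naive and germ cell genes 2 rose (Ifitm1 and Wnt3).

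Markers of neighbouring tissues were summed per library. The 12 defining markers of extra-embryonic ectoderm, such as Elf5 and Rhox6, summed to 1.46 to 16 FPKM (median 6.04) in the 6 most proximal P libraries and to 1.59 to 6.03 (median 5.02) in the 6 most distal. Rhox9 was at 0 in all 6 of the most proximal libraries, and Elf5, Rhox6 and Rhox9 were at 0 in all 6 of the most distal. Their part in the proximal rise was not tested. The 7 defining markers of visceral endoderm, such as Ttr and Afp, summed to 2.59 to 123 FPKM (median 6.68) in the most proximal and 3.82 to 94.1 (median 12.7) in the most distal P libraries, against 202 to 4850 in the 14 EP libraries of embryos 5 and 6. Over all P libraries these sums were 3.25 to 123 FPKM (median 17.3) in embryos 1 to 4. In embryos 5 and 6 they were 0.183 to 15.8 FPKM (median 3.74). Of 5 decidua and blood markers found, the sums were 0.202 to 12.9 FPKM in the most proximal and 0.948 to 131 FPKM in the most distal, and up to 347 FPKM over all 37 libraries. The part of these tissues in the slopes was not tested. Of 19 tested visceral endoderm genes, Gata6 rose (1.86 ± 0.31, with embryo 6 apart at 3.72), and of 9 anterior visceral endoderm genes 4 rose (Dkk1, Lhx1, Gsc and Tdgf1), all of them also in lists of the streak or of NODAL. Of 10 tested genes of the wider extra-embryonic ectoderm list 1 rose, Eomes, which epiblast also expresses, and of 8 parietal endoderm genes 2 rose, Snai1 and Fst.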

How the data were processed

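Gene expression was measured by Geo-seq in laser-dissected groups of cells from cryosections. TopHat2 2.0.8b, Cufflinks 2.1.1 and the mm10 build are named in the submitters' notes on processing. The values the authors deposited are FPKM of 23361 genes, in 1 table for each embryo. The gene annotation and options are not given in the sources used here. Read counts were not used here, so the depth per library is not known and no count test was run. The members and gene lists were chosen with earlier results of these data known. Each column was assigned through the embryo, section and region in its name; for embryo 6 the table carries E6.0 in its name, while the labels say E6.5, which was followed. No 2 of the P libraries were identical (0 pairs).

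In each embryo the least-squares slope of log2(FPKM + 1) on position was taken, with the bend as 0.5 times the squared term of a quadratic fit. Slopes, bends and P minus A slope differences were fitted in limma 3.58.1 (R 4.3.3, trend and robust moderation). The fits covered 9543 genes with a mean of at least 1 FPKM over the P libraries (mean of the embryo means). Adjustment was by Benjamini-Hochberg, with a threshold of 0.05. SE is the moderated standard error. The scale understates changes of low genes. Calls were repeated with libraries at an equal FPKM sum and at an equal median. P and A were paired by the embryo given in the labels; as a check, slope deviations of P and A correlated across genes by -0.017 to 0.125 within embryos and by -0.086 to 0.096 between embryos. The labels give embryos 5 and 6 separate endoderm libraries and embryos 1 to 4 none, so this was also used as a batch term. Named genes are Mesp1, Id1, Mixl1, T, Eomes, Wnt3, Fgf8, Nodal, Bmp4, Sox2, Pou3f1, Otx2, Pou5f1 and Nanog; up to 12 upward and 10 downward genes of largest slope (at least 1, same sign in 6 of 6 embryos, mean of at least 5 FPKM, no predicted genes); up to 4 genes each way by bend and by P minus A; and 3 per gene list (30 lists) by p. The procedure was tested on simulated slopes. Promoters came from RefSeq and gene positions from GENCODE vM21 (GRCm38). Python 3.11.15 with pandas 2.3.3, numpy 2.4.6 and matplotlib 3.10.9 served for the remaining steps.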

Additional observations from a re-analysis of the deposited data

Results flagged for a closer look

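In 4 of the 86 genes whose slopes were examined, the slope of 1 embryo lay far from the other 5; chance alone sets about 1 in 20 groups apart in this way. Pou3f1 fell in embryo 3 with a slope of -3.75, against -1.86 to -1.70 in the others. Gata6 had a slope of 3.72 in embryo 6 against 0.97 to 1.98. Maml1, a NOTCH coactivator, had -0.42 in embryo 5 against 0.95 to 1.52; its slope over all embryos of 0.85 (adjusted p = 0.0357) did not pass without section 3 of embryo 6 (0.78, adjusted p = 0.0592). Hba-a2, an adult globin, had 2.87 in embryo 6 against -0.05 to 0.60.

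Slopes differed between the P and the A side of the same embryos (limma on paired differences, Benjamini-Hochberg adjusted p under 0.05) in these named genes, each with the same sign in 6 of 6 embryos: Mesp1 (5.80), T (4.64), Mixl1 (4.43), Slpi (3.53), Sp5 (3.38), Frzb (3.06), Lhx1 (3.03), Snai1 (2.84), Evx1 (2.67), Grrp1 (2.41), Cxx1c (2.28), Fgf17 (2.04), Ccnd2 (1.83), Fst (1.82) and Utf1 (-1.49). At an equal sum 9 of the 15 did not pass: Mixl1 (adjusted p = 0.0936), Slpi (0.0936), Grrp1 (0.0936), Frzb (0.105), Fgf17 (0.146), Cxx1c (0.159), Ccnd2 (0.192), Snai1 (0.31) and Fst (0.347). At an equal median 6 of these 9 did not pass either; Mixl1, Slpi and Frzb did. Without section 7 of embryo 1 Mixl1 and Fst did not pass (0.0624 and 0.0767), and without section 3 of embryo 6 Mixl1, Cxx1c, Ccnd2 and Fst did not (0.157, 0.112, 0.078 and 0.0526). Without at least 1 single embryo 10 of the 15 did not pass; Mesp1, T, Sp5, Evx1 and Lhx1 passed without each. Cxx1c may share reads with Cxx1a and Cxx1b.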

How the results depend on the processing

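On all 3 scales, the upward count of 150 was 92 with no filter on low values, 95 with a mean of at least 5 FPKM and 83 without the most distal section, and the downward count of 46 was 13, 25 and 19 there and 27 with a pseudocount of 0.1; single embryos left out gave 105 to 140 and 22 to 46. Upward calls, 1926 as deposited, were 193 at an equal sum and 150 at an equal median. On the deposited scale they were 276 unfiltered, 273 in embryos 1 to 4 and 99 in embryos 5 and 6. They were 3466 without the most proximal and 105 without the most distal section. With the section 1 library added they were 250, and with the spread shared with other stages 171 (499 to 2767 without single embryos). Downward calls were 13 unfiltered, 31 at 5 FPKM, 33 in embryos 1 to 4, 2 in embryos 5 and 6, 23 without the most distal section and 15 with shared spread (35 to 78). Positive bends were 4 at an equal median, 1 and 8 with pseudocounts 0.1 and 5, 0 unfiltered, 5 at 5 FPKM, 0 in embryos 5 and 6 and 1 without the most distal section (2 to 12). Negative bends were 6 at an equal sum, 7 at an equal median, 10 and 39 with pseudocounts 0.1 and 5, 0 unfiltered, 291 at 5 FPKM, 3 in embryos 1 to 4, 0 in embryos 5 and 6, 3 without the most proximal and 0 without the most distal section, and 66 without section 5 of embryo 4 (5 to 751). Positive P minus A differences were 7 and 9 at an equal sum and median, 2 and 40 with pseudocounts 0.1 and 5, 5 unfiltered, 10 and 1 in embryos 1 to 4 and 5 to 6, 58 and 7 without the most proximal and most distal section, 16 without trend and robust moderation, 13 without section 3 of embryo 6 and 44 without section 7 of embryo 1 (6 to 37); negative ones were 3 and 3 at an equal sum and median, 2 without section 7 of embryo 1, and 0 with pseudocount 0.1, unfiltered, in either batch, without the most proximal section or without trend (0 to 2). With no replicate block, so without pairing P and A by embryo, there were 13 positive and 0 negative differences. Sharp genes were 92 and 2 of all calls, and 50 and 1 of those on all 3 scales, with limits of 0.65 and 0.85; at an equal sum there were 172 gradual genes of all calls and 3 distal plateau genes of those on all 3 scales. The boundary difference of Mesp1 and T passed at 0.25 of the highest FPKM (0.077) and that of Id1 and Mesp1 did not at an equal sum (0.028). Without single embryos the differences were 0.014 to 0.03 (Mesp1 minus T), 0.084 to 0.143 (Mesp1 minus Mixl1), 0.287 to 0.361 (Mesp1 minus Eomes), 0.048 to 0.069 (Id1 minus Mesp1), 0.152 to 0.204 (Id1 minus Mixl1) and -0.232 to -0.166 (Eomes minus Mixl1), where 5 embryos allow no p below 0.0625 in the exact permutation test. Slopes of embryos 5 and 6 against embryos 1 to 4 gave 0 calls in limma (304 genes had an unadjusted p under 0.05), which with 2 against 4 embryos does not show equal slopes. The settings leaving out single libraries (section 5 of embryo 4, sections 3 and 4 of embryo 6, section 7 of embryo 1) were chosen after seeing the data; for P minus A, both the P and the A library of the section were left out. Of 1868 slope values of 86 named genes under all settings, 1620 kept direction and call, 207 lost the call, 41 gained it and 0 changed sign past a call; the causes were not tested. The depth is not known, so no limit from it can be given.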
